A study of Arabidopsis thaliana with 6 samples.

Results

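A set of 10 genes of brassinosteroid synthesis, inactivation and signalling was followed in Arabidopsis thaliana seedlings. They were chosen by their locus codes as the best known genes of the pathway, with earlier results of these data known. DET2, DWF4, CPD and BR6OX2 belong to synthesis and BAS1 to inactivation. The others are the receptor BRI1 and its partner BAK1, the kinase BIN2, and the transcription factors BZR1 and BES1. Of the 10 genes, 9 had their own row among the 26765 rows of the deposited table, and the authors tested all 9. BIN2 had only a row that it shared with its overlapping neighbour AT4G18720. The RNA was taken from the shoots (aerial parts) of seedlings at 17 days, under 16 h of light per day and 24 °C, with 3 samples of wild type and 3 of epic2, both in the Col-0 background. In the table the groups are called silex and epic2. Because silex appears in no label, it was taken to be the wild type by elimination, and directions are those of epic2 relative to silex. The sources used here do not name the gene altered in epic2, and its level was not examined. Levels are the authors' FPKM (a level per length of transcript and per library size), with 1 value per group pooled over its 3 samples. No value of a single sample was available, so no level carries a spread, and sequencing depth is unknown.

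Brassinosteroids are steroid hormones of plants that drive cell expansion and shape the growth of shoots. They are made from the plant sterol campesterol by a reductase and a chain of cytochrome P450 enzymes. At the cell surface the hormone joins the receptor kinase BRI1 to its co-receptor BAK1, which leads to inactivation of the kinase BIN2 and lets the transcription factors BZR1 and BES1 act in the nucleus. These factors bind DNA at the letters CGTGTG or CGTGCG and at E-boxes, and they lower the transcripts of several synthesis genes in a feedback loop.

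Transcripts of the synthesis genes CPD and BR6OX2, of the inactivating enzyme BAS1 and of the receptor pair BRI1 and BAK1 were lower in epic2, while those of the transcription factors BZR1 and BES1 did not pass the test in either direction. The genes that fell had epic2 levels between 0.579 and 0.793 times those of silex. DWF4 and DET2 did not pass either, and the result for DWF4 depended on the scaling. A gene was called when its q-value in the authors' deposited table was at or below 0.05. By that rule 5 of the 9 genes with a row of their own were lower and 0 were higher, where 18.3% of the 18916 tested rows of the table were called, 8.8% as lower and 9.51% as higher. With Bonferroni adjustment over all tested rows 2 genes were called, CPD and BR6OX2, and with a minimum change of 1.5-fold 3 were called, these and BAS1, so that neither BRI1 nor BAK1 passed in either case. The share of all tested rows that passed at these stricter settings was not counted. At a q of 0.05 that share rises with level, to 39.0% of rows of 100 FPKM or more. The median log2 fold change of the 9 genes was -0.34, beside 0.01 over all tested rows. In whole shoots, fewer cells that express a gene and less RNA per cell cannot be told apart.

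**Figure D1:**
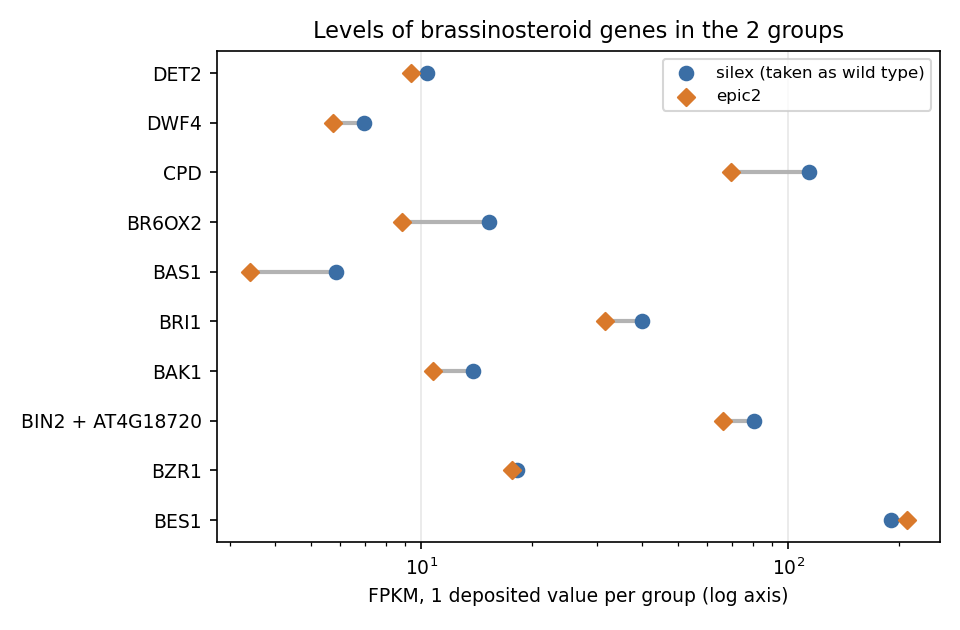
Levels of the 10 genes on a logarithmic FPKM axis, with a circle for silex and a diamond for epic2, each the authors' single value for its group. CPD moved from 113.5 to 69.8 FPKM and BES1 stayed highest at 190.6 and 210.2 FPKM. The row marked BIN2 holds AT4G18720 as well.

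The stretches before the annotated starts of the 5 genes that fell are shown because BZR1 and BES1 act through short DNA letters near gene starts. Each is the 250 bases before the start of the gene in the RefSeq annotation of TAIR10.1, whose nuclear chromosomes are those of TAIR10, written 5′ to 3′ on the gene's strand. Capitals mark the motif CGTGTG, the motif CGTGCG or the motif CACGTG on either strand.
CPD, chr5:1706949-1707198, minus strand: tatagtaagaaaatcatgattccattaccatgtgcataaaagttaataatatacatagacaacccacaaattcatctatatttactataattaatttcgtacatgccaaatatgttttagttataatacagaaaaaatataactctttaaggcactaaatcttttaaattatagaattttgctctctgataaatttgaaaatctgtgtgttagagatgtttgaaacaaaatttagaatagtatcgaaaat
BR6OX2, chr3:11810476-11810725, plus strand: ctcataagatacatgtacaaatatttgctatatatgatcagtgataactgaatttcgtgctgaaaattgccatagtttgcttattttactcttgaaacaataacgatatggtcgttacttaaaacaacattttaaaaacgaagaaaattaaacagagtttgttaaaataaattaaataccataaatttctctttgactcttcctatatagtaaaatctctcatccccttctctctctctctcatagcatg
BAS1, chr2:11380213-11380462, plus strand: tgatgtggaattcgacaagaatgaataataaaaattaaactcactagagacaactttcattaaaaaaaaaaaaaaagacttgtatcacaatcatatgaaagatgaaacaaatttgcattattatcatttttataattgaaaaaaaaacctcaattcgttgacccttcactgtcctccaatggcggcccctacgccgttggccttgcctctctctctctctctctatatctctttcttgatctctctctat
BRI1, chr4:18324207-18324456, plus strand: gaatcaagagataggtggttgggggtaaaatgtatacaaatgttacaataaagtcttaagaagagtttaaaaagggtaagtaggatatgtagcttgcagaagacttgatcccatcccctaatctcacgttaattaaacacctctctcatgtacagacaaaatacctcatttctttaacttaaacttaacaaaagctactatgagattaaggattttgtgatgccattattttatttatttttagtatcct
BAK1, chr4:16090833-16091082, minus strand: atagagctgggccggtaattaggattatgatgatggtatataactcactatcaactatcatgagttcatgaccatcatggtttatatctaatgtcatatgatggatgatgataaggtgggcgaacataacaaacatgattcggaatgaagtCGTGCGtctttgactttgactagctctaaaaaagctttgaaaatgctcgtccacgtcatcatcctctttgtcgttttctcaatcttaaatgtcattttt

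In windows reaching from 250 bases before to 50 bases after the annotated start, CGTGTG or CGTGCG on either strand occurred in 8.11% of 24620 promoters of protein-coding genes in the table. Among the 5 windows of the genes that fell, BAK1 alone held such letters, a single CGTGCG that begins 99 bases before the start. The general E-box CANNTG, which includes CACGTG and has the same letters on both strands, occurred in 61.3% of those promoters. It was present once in each window of BRI1, BAK1, CPD and BAS1 but not in that of BR6OX2. BZR1, which did not pass the test, held CGTGTG on the opposite strand at 178 and 22 bases before its start and the G-box CACGTG at 85 bases before it. CACGTG was found in 7.76% of all these promoters and in no other of the 10 windows. A match of letters describes the sequence and shows no binding.

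The annotated starts differ from the edges of the authors' rows by up to 204 bases for BRI1 and by 161 bases for CPD, so the windows depend on the annotation. With the start placed at the edge of the authors' row, a choice made after the data were seen and possible for 5 of the 10 genes, CPD held a single CGTGTG whose first base was the base 2 of its row. It is shown with its neighbouring bases, which the RefSeq annotation places inside the transcript, with the motif in capitals.
CPD, chr5:1706769-1706798, minus strand: gcagaaacccccCGTGTGcccactctcccc

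DWF4, BRI1, BR6OX2 and BAS1 held neither CGTGTG nor CGTGCG in these windows, and 8.81% of 19412 such windows in the table did.

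Synthesis genes came first in order of the pathway. DET2 (AT2G38050) encodes the steroid reductase of an early step. It measured 10.3 FPKM in silex against 9.37 FPKM in epic2. The authors' deposited table gave a log2 change of -0.14 (q = 0.902), and its test statistic implies a standard error (SE) of 0.54. The ratio of epic2 to silex had a 95% interval of 0.433 to 1.90. Decreases and increases up to these bounds were thus compatible with the test. The implied standard error was 3.44 times the median of tested rows within 2-fold of its level, 0.158. The DET2 row (chr2:15917093-15922313) has the interval of a second row, CAC3, a subunit of the plastid acetyl-CoA carboxylase, which stood at 82.8 and 96.0 FPKM, and how reads were divided between them is not given. The gene itself is annotated as protein-coding at 15921136 to 15922321 in TAIR10.1.

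DWF4 (AT3G50660) encodes the side-chain hydroxylase that is regarded as the rate-limiting step of synthesis. It measured 6.98 FPKM in silex against 5.75 FPKM in epic2 (chr3:18814140-18817244). Its log2 change was -0.28 (SE 0.16, q = 0.214) by the authors' deposited table, and the interval of the ratio ran from 0.661 to 1.03. Centred on the median of rows of 100 FPKM or more, its log2 change was -0.44 and it passed a new Benjamini-Hochberg adjustment, not the authors' q. This centring lowers every row alike, and the share of all tested rows that passed under it was not counted. A decrease as large as that of BR6OX2, whose ratio was 0.579, lay outside that interval.

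CPD (AT5G05690), a P450 of the following oxidation steps and named for the dwarf mutant that lacks it, was the most strongly expressed synthesis gene of the 4. It fell from 113.5 FPKM (silex) to 69.8 FPKM (epic2) (chr5:1702688-1706787). The authors' deposited table put its log2 change at -0.70 (SE 0.09, q = 9.11e-14). The ratio was 0.615, with a 95% interval of 0.546 to 0.693.

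BR6OX2 (AT3G30180) encodes the P450 of the last steps, which form castasterone and brassinolide. It fell from 15.3 FPKM to 8.86 FPKM (chr3:11810737-11813765), so that it decreased by 42.1%. The log2 change in the authors' deposited table was -0.79 (SE 0.13, q = 3.14e-08). Its close relative BR6OX1 was weakly expressed, at 1.22 and 1.00 FPKM, and missed the threshold, with q = 0.748 in the authors' deposited table. BR6OX2 was thus 12.5 times BR6OX1 in silex and 8.85 times in epic2, as a ratio of FPKM levels. Summed over the 4 synthesis genes, the level was 146.1 FPKM in silex and 93.8 FPKM in epic2, most of it CPD.

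BAS1 (AT2G26710), a P450 that inactivates brassinosteroids by hydroxylation, had the lowest level of the 9 genes. It fell from 5.86 FPKM to 3.40 FPKM (chr2:11380492-11383612). Its log2 change was -0.79 (SE 0.18, q = 0.000149) by the authors' deposited table, and the ratio was 0.580 with an interval of 0.454 to 0.740. The ratio of the BR6OX2 level to the BAS1 level was 2.61 in silex and 2.60 in epic2, and that of CPD to BAS1 was 19.4 and 20.5. The last synthesis gene and the inactivation gene therefore had nearly equal fold changes, and the difference between them was not tested.

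**Figure D2:**
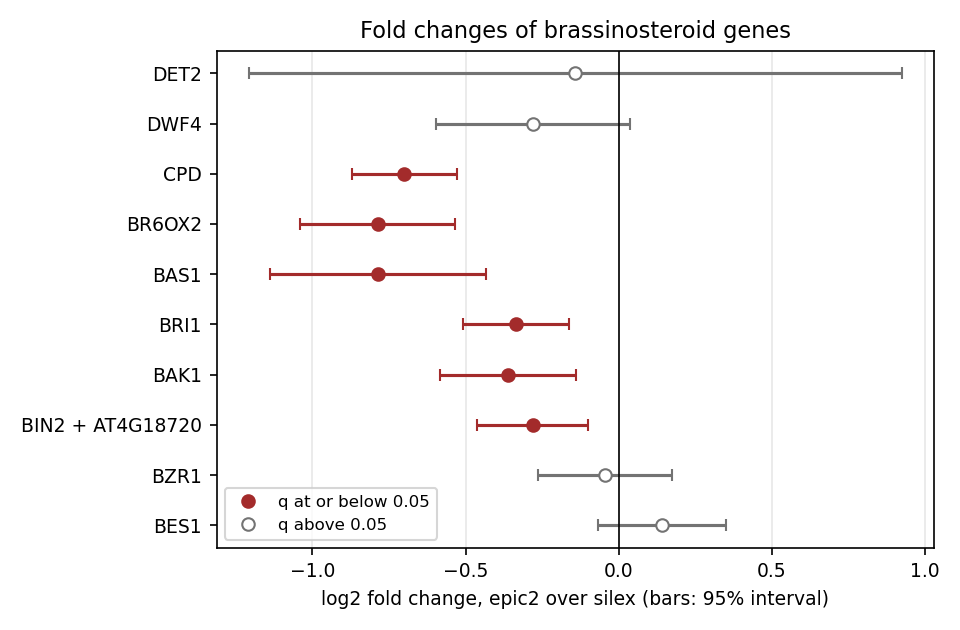
Log2 fold changes of epic2 over silex from the authors' table, with bars for the 95% interval from the implied standard error. Filled points have q at or below 0.05. The intervals of CPD, BR6OX2, BAS1, BRI1, BAK1 and the shared BIN2 row lie below 0, and DET2 has the widest, from -1.21 to 0.92.

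The receptor BRI1 (AT4G39400), a leucine-rich repeat kinase that binds the hormone, fell from 40.0 FPKM (silex) to 31.7 FPKM (epic2) (chr4:18324661-18328826). The authors' deposited table put its log2 change at -0.34 (SE 0.09, q = 0.00122). BAK1 (AT4G33430), the co-receptor that BRI1 shares with immune receptors, fell from 13.8 to 10.8 FPKM (chr4:16086311-16090777). Its log2 change was -0.36 (SE 0.11, q = 0.00886) by the authors' deposited table. The intervals of the ratio were 0.703 to 0.893 for BRI1 and 0.668 to 0.908 for BAK1. The level of BRI1 was 2.89 times that of BAK1 in silex and 2.95 times in epic2. BAK1 belongs to a family of similar kinases, and the sources used here do not say how reads that map to several members were treated.

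BIN2 (AT4G18710), the kinase that holds the pathway off in the absence of hormone, could not be read on its own. The row it shares with AT4G18720 (chr4:10296273-10301228) fell from 80.8 FPKM (silex) to 66.5 FPKM (epic2). The authors' deposited table put its log2 change at -0.28 (SE 0.09, q = 0.0135). Counting this row as well, 6 of 10 rows were lower.

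BZR1 (AT1G75080) and BES1 (AT1G19350) are the paired transcription factors of the pathway. BZR1 measured 18.2 FPKM in silex against 17.7 FPKM in epic2 (chr1:28185504-28189725), a log2 change of -0.05 (SE 0.11, q = 0.835) by the authors' deposited table. BES1 stood at 190.6 and 210.2 FPKM (chr1:6688522-6692477), a log2 change of 0.14 (SE 0.11, q = 0.375) by the authors' deposited table. The intervals of the ratio were 0.833 to 1.13 for BZR1 and 0.955 to 1.27 for BES1, so decreases as large as that of CPD lay outside both. BES1 had 10.5 times the level of BZR1 in silex and 11.9 times in epic2. BES1 was the one gene of the 9 with a value above 0, and its sign depended on the scaling: centred on the median of rows of 100 FPKM or more, which was 0.16, its log2 change was -0.020. Each of the 2 rows has the interval of an overlapping neighbour. AT1G75090 beside BZR1 stood at 2.95 and 3.66 FPKM, and AT1G19360 beside BES1 at 13.9 and 12.3 FPKM.

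The order of the levels in silex was BES1, CPD, BRI1, BZR1, BR6OX2, BAK1, DET2, DWF4 and BAS1, and the highest was 32.5 times the lowest. In epic2 BAK1 at 10.8 FPKM, DET2 at 9.37 FPKM and BR6OX2 at 8.86 FPKM followed BZR1 in that order. With no value per sample, it cannot be said which neighbours in the order differ beyond their spread. The levels lay between percentile 28.6 (BAS1) and percentile 96.3 (BES1) of the tested rows.

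**Figure D3:**
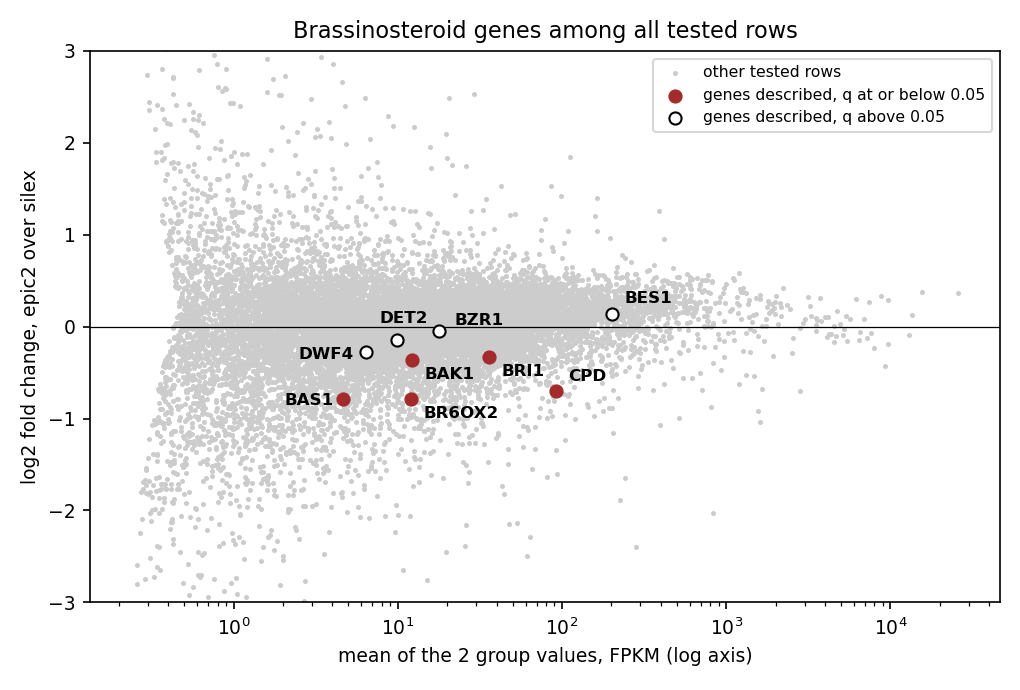
Log2 fold change of epic2 over silex against the mean of both group values in FPKM, on a logarithmic axis, for 18778 tested rows. Grey points are the other rows, and 54 rows beyond a log2 fold change of 3 in either direction are not drawn. The genes that fell span levels from BAS1 to CPD.

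Beyond these genes, 72 further pathway genes, also chosen with earlier results of these data known, were grouped by role. Their own row was present for 70 and tested for 65, of which 3 rose, 19 fell and 43 did not pass. The share called was 33.8%, beside 18.3% of all tested rows, of which 8.8% were lower and 9.51% higher. Their median log2 fold change was -0.17, beside 0.01 over all tested rows. The share of tested rows called rises with level in this table. It was 12.5% of rows of 1 to 10 FPKM, 21.7% of rows of 10 to 100 FPKM and 39.0% of rows of 100 FPKM or more.

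Among the other genes of sterol and brassinosteroid synthesis 1 rose, 1 fell and 10 did not pass, of 12 tested. The share called, 16.7%, was near the 18.3% of all tested rows. ROT3, a P450 that hydroxylates the side chain, rose from 3.87 to 6.14 FPKM, a log2 change of 0.66 (SE 0.17, q = 0.000631) by the authors' deposited table. Its row shares its interval with another row, so the division of reads is uncertain. CYP90D1, its close relative, missed the threshold, at 3.83 and 4.42 FPKM. SMT2, a sterol methyltransferase, fell from 111.8 to 85.7 FPKM (q = 0.000148 in the authors' deposited table). DWF1, which makes campesterol, stood at 181.7 and 167.1 FPKM, and the sterol methyltransferase SMT1 at 74.0 and 67.2 FPKM, and neither passed. Of 5 tested genes of inactivation other than BAS1, 0 were called in the authors' test, and 0 had an unadjusted p under 0.05. The reductase-like gene BEN1 stood at 10.3 and 8.60 FPKM, and the glucosyltransferase gene UGT73C6 at 6.998 and 5.93 FPKM.

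Receptors and their partners at the membrane moved in both directions, with 2 higher, 3 lower and 9 not passing of 14 tested, a share called of 35.7% beside 18.3% of all tested rows. Under Bonferroni adjustment 1 of these calls was kept, BRL2, and with a minimum change of 1.5-fold 0 were. BRL2, a relative of BRI1 known from vascular tissue, rose from 8.22 to 11.95 FPKM, a log2 change of 0.54 (SE 0.11, q = 3.48e-05) by the authors' deposited table. The level of BRI1 was 4.86 times that of BRL2 in silex and 2.65 times in epic2. BRL1 and BRL3, the relatives that bind the hormone, stood at 0.919 and 0.704 FPKM and at 1.04 and 0.977 FPKM, and neither passed. BSK1 and BSK3 encode membrane-bound kinases that act just after the receptor. BSK1 fell from 31.8 to 24.7 FPKM (q = 0.00163 in the authors' deposited table), while BSK3 rose from 20.5 to 25.5 FPKM (q = 0.00623 in the same deposited table of the authors). BIR1, a receptor-like kinase that binds BAK1, fell from 10.9 to 8.87 FPKM (q = 0.0451 in the authors' deposited table), a call lost with Benjamini-Hochberg adjustment over all tested rows (adjusted p = 0.0599). BRS1, a secreted carboxypeptidase that acts in signalling through BRI1, fell from 21.1 to 14.6 FPKM, and its row shares its interval with another row. BIR3, also a partner of BAK1, stood at 26.2 and 22.4 FPKM, and SERK2, of the BAK1 family, at 19.0 and 16.4 FPKM, and neither passed.

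Inside the cell, 0 of 6 tested kinase and phosphatase genes were called in the authors' test, where 18.3% of all tested rows were called. Of the 6, 1 had an unadjusted p under 0.05. The close relatives of BIN2 stood at 49.9 and 47.5 FPKM for ASKdZeta and at 34.8 and 37.2 FPKM for GSK1. Among relatives and partners of BZR1 and BES1, 0 rose, 4 fell and 5 did not pass, of 9 tested, where 8.8% of all tested rows were lower. With a q of 0.01 the count was 1, as it was under Bonferroni adjustment. MYBL2, a MYB repressor that works with BES1, fell from 56.0 to 25.2 FPKM, a log2 change of -1.16 (SE 0.11, q listed at 0) by the authors' deposited table. BEH2, a homologue of BES1, fell from 27.4 to 21.8 FPKM. BIM3, a partner of BES1, fell from 9.28 to 5.66 FPKM, and its row shares its interval with another row. MAX2, an F-box protein that takes part in the breakdown of BES1, fell from 13.5 to 10.9 FPKM. BEH1, another homologue, stood at 31.0 and 31.2 FPKM, and the elongation factor IWS1 at 34.2 and 30.4 FPKM, and neither passed.

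Among 16 genes known to be induced by brassinosteroid 0 rose, 8 fell and 8 did not pass, with a median log2 fold change of -0.26, where 8.8% of all tested rows were lower and 9.51% higher. The count was 5 at a q of 0.01 and 3 under Bonferroni adjustment. EXL2, a relative of the growth gene EXORDIUM, fell from 19.3 to 9.55 FPKM, a log2 change of -1.02 (SE 0.14, q = 4.94e-12) by the authors' deposited table. PRE5 and KDR, small helix-loop-helix proteins that promote elongation, fell as well, PRE5 from 2.62 to 0.920 FPKM and KDR from 35.2 to 25.9 FPKM. HBI1, a bHLH activator of growth, fell from 88.6 to 65.0 FPKM. IAA19, which also responds to auxin, fell from 20.6 to 12.7 FPKM, and the wall-sensing receptor kinase THE1 fell from 17.96 to 11.7 FPKM. Its relatives HERK1 and FER made up the 8 genes that fell, and HERK1 (q = 0.0457 in the authors' deposited table) lost its call with Benjamini-Hochberg adjustment over all tested rows (adjusted p = 0.0607). The row of HERK1 shares its interval with another row. The expansin gene EXPA8 stood at 183.6 and 206.0 FPKM, and BEE2, named for its response to the hormone, at 68.7 and 62.2 FPKM, and neither passed. BEE1 and BEE3 did not pass either, at ratios of 1.01 and 0.973.

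All 3 genes of a short list of genes repressed by brassinosteroid fell as well, where 8.8% of all tested rows were lower. Under Bonferroni adjustment 2 of these calls were kept. Synthesis genes, several of which the hormone lowers by feedback, were listed apart. They did not all fall: CPD and BR6OX2 did, DWF4 did not pass and ROT3 rose. IBH1, a helix-loop-helix inhibitor of cell elongation, fell from 20.1 to 6.95 FPKM, a log2 change of -1.53 (SE 0.18, q listed at 0) by the authors' deposited table. GATA2, a transcription factor of light signalling, fell from 4.29 to 1.93 FPKM. BRH1, a RING finger gene, fell from 62.2 to 40.5 FPKM.

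**Figure D4:**
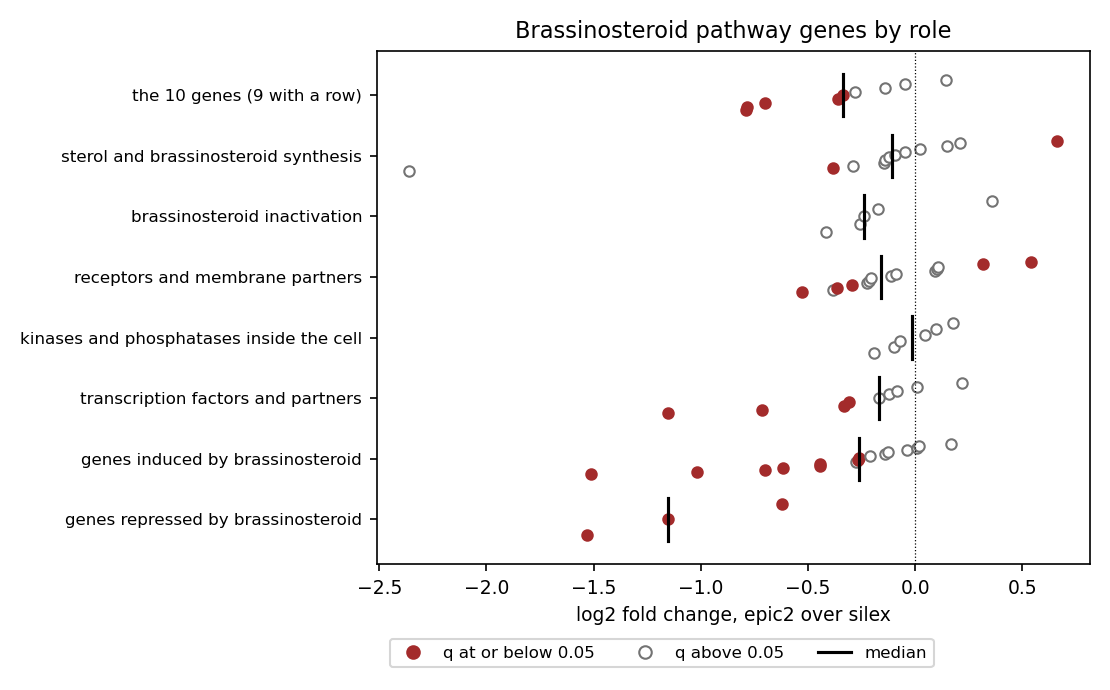
Log2 fold changes of epic2 over silex for the tested genes of each role, with filled points for q at or below 0.05 and a vertical line at each median. Both hormone-induced and hormone-repressed genes have called members below 0, and the synthesis and membrane groups have called members on either side.

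The labelled tissue was checked on marker genes. Of 6 shoot markers 4 were tested and 0 were called in the authors' test (0 at an unadjusted p under 0.05), with summed levels of 21173 FPKM in silex and 19386 FPKM in epic2. RBCS1A and RCA were left out by the authors' program as holding too much data and are listed at 0. Of 7 root markers 4 were tested, 2 rose and 1 fell, where 18.3% of all tested rows were called. The beta-glucosidase gene PYK10, also expressed in young shoots, fell from 130.9 to 51.8 FPKM, and without it the root markers summed to 1.30 FPKM in silex and 4.04 FPKM in epic2. CASP1 rose from 0.252 to 1.52 FPKM and FRO2 from 0.857 to 1.74 FPKM, while IRT1 was listed at 0 in silex and stood at 0.0309 FPKM in epic2. The part of these markers in the changes above was not tested. The rows of PYK10 and CASP1 each share their interval with another row. Seed storage genes stood at or below 0.0319 FPKM.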

How the data were processed

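The submitters' processing notes name TopHat, Cufflinks, Cuffdiff and TAIR10, with no version. For each gene the authors deposited a pooled FPKM value of either group, a log2 fold change, a test statistic, a p-value and a q-value. How libraries were scaled is not given. The p-value followed from the statistic by the normal distribution (two-sided). The size of the log2 fold change, divided by that of the statistic, therefore gave the standard error (SE). The 95% intervals are 1.96 SE either way. The statistic had the opposite sign to the fold change in all 18832 tested rows with both values above 0. Directions follow the FPKM values, whose log2 ratio matched the deposited fold change to within 1.59e-05. The SE is the one implied by the authors' test, and how their program formed it is not given. Any spread between samples that it holds may be technical. Low values gave no depth. The labels do not state strand, so antisense reads cannot be told apart. Rows were matched by locus tag or symbol to RefSeq TAIR10.1, with 99.3% of 24827 matched rows overlapping their gene. Members and lists were chosen with earlier results of these data known. Named were the 10 genes, up to 6 called genes per list and the 2 highest uncalled ones. Others (CYP90D1, BR6OX1, BRL1, BRL3, BEE1, BEE3, FER, HERK1, neighbours, and the weakly expressed or shared rows in the closing observations with TCP1 and BSL1) were chosen after their values were seen. With 2 values per gene, no likeness between genes was measured. Protein sequences were not used here. The Benjamini-Hochberg step of the alternative settings was run on simulated data, which does not test the authors' q-values. Software was scipy 1.17.1, numpy 2.4.6, pandas 2.3.3 and matplotlib 3.10.9 under Python 3.11.15.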

Additional observations from a re-analysis of the deposited data

How the results depend on the processing

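The counts of called genes kept within 1.5 times their value in most alternatives. With Bonferroni adjustment over all tested rows 2 of the 9 genes were called, CPD and BR6OX2, beside 0 of the other synthesis genes, 1 receptor or partner, 1 transcription factor or partner and 3 hormone-induced genes. With a minimum change of 1.5-fold on the log2(FPKM + 1) scale 3 of the 9 were called, beside 0 of the other synthesis genes, 0 receptors or partners, 2 transcription factors or partners and 3 induced genes. At a q of 0.01 the transcription factor list had 1 call and the induced list 5. The share of all tested rows called was counted only for the authors' q-values at 0.05, without centring. Centred on the median of rows of 100 FPKM or more, DWF4 passed at a log2 change of -0.44 and BES1 turned to -0.020, since the median of 0.16 was subtracted. A q of 0.10, Benjamini-Hochberg adjustment over all tested rows or over rows of 1 FPKM or more, and pseudocounts of 1 and 0.1 FPKM changed no call or direction of the 9 genes, though Benjamini-Hochberg adjustment over all tested rows ended the calls of BIR1 and HERK1. With the start at the row edge, a choice made after the data were seen, windows were possible for BRI1, DWF4, CPD, BR6OX2 and BAS1. Among these 5, a set that lacks BAK1, windows with CGTGTG or CGTGCG went from 0 to 1. No paired analysis was possible because the table holds no value per sample, and leaving out single samples was not run for that reason. Depth is unknown. The median implied standard error was 0.24 for rows of 1 to 10 FPKM and 0.12 for rows of 10 to 100 FPKM.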

Other observations

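Several pathway genes were too weakly expressed for the authors' test. CESTA, a bHLH gene linked to the control of synthesis genes, was listed at 0 in silex and stood at 0.0415 FPKM in epic2. BSU1, the founding phosphatase of its family, stood at 0.00555 and 0.171 FPKM, and its relative BSL1 at 23.4 and 20.5 FPKM. The kinase gene CDG1 was listed at 0 in both groups, KIB1 stood at 0.0162 FPKM in silex and was listed at 0 in epic2, and the acyltransferase gene BIA1 stood at 0.0110 and 0.0243 FPKM. TCP1, a transcription factor that promotes DWF4 expression, stood at 0.712 and 0.139 FPKM and missed the threshold, with q = 0.230 by the authors' deposited table (log2 change -2.36, SE 1.40).

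BEH4 and SBI1 each had only a row shared with neighbours. The row of BEH4, a homologue of BES1, stood at 13.9 and 15.6 FPKM, and that of SBI1, a methyltransferase that acts in turning off BRI1, at 76.8 and 74.7 FPKM.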
